A study of Mus musculus with 1111 samples.

Results

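The interferon-responsive microglia described here were 52 of 987 single microglia that passed a depth filter, out of 1111 labelled cells in the series. They were selected on measured values. A cell counted as responsive with at least 10 CPM (a gene's reads scaled to the total reads in genes of that cell) in 2 or more of 12 interferon-induced genes: Ifit1, Ifit2, Ifit3, Ifit3b, Isg15, Irf7, Oasl2, Usp18, Rtp4, Ifi27l2a, Ifi204 and Xaf1. The comparison group, called other microglia, was the 807 cells in which none of the 12 reached 10 CPM. The remaining 12.97% of passing cells had exactly 1 of the 12 and are described apart. All cells were sorted from brains of 3-month-old mice, 20 hours after an injection of plasma proteins tagged with NHS-Atto647N, a fluorescent dye, so every cell of both classes came from an injected animal. Each cell was assigned by its dye signal to plasma none (35.06% of passing cells), plasma low (35.56%) or plasma high (29.38%, 290 cells), and was sequenced with Smart-seq2, a plate method that makes 1 full-length library per cell. Strain and sex are not given in the labels, and no label names an animal. Each side of a comparison therefore counts as 1 sample, and no test or p-value is given. Labels also carry a TH number from 1 to 3, whose meaning is not stated. Ratios were taken within each TH number, and errors are the SD over the 3 TH numbers, which is not a spread between animals.

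Type I interferons are secreted antiviral signals that bind the receptor pair IFNAR1 and IFNAR2 and act through the kinases JAK1 and TYK2. These phosphorylate STAT transcription factors, which join IRF9 and bind interferon-stimulated response elements in promoters, DNA sites built on repeats of GAAA. The genes switched on include RNA sensors, RNA-degrading and translation-blocking enzymes, ubiquitin-like modifiers and membrane proteins that hinder viral entry. A small fraction of microglia with this program is known from mouse brain, in development, ageing and injury. In the rule, Ifit1, Ifit2, Ifit3 and Ifit3b encode RNA-binding antiviral proteins, Isg15 a ubiquitin-like modifier, Usp18 the protease that removes it, and Irf7 the transcription factor that amplifies interferon production. Oasl2 encodes a relative of the oligoadenylate synthetases, Rtp4 a chaperone-like protein, Ifi204 a DNA-binding protein of the p200 family, and Ifi27l2a and Xaf1 further interferon-induced proteins.

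The short promoter stretches below are shown because members of the rule, effector genes outside it and Ddx60, 1 of the largest rises, carry the same repeat. They lie before the RefSeq start site (GRCm38.p6), which for Slfn5 falls inside the gene as annotated in the tables, and are read 5′ to 3′ on the gene's strand, with each match to GAAA, 2 bases of any kind, GAAA on either strand in capitals. On the opposite strand the match reads TTTC, 2 bases, TTTC, and overlapping matches run together.
Isg15 (chr4:156200863-156200908, minus strand): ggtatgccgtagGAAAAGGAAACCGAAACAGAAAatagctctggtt
Ifit1 (chr19:34640773-34640825, plus strand): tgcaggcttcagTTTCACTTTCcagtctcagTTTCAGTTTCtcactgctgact
Ifit3 (chr19:34583361-34583428, plus strand): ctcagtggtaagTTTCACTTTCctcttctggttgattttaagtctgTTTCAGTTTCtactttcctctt
Ifit3b (chr19:34607757-34607824, plus strand): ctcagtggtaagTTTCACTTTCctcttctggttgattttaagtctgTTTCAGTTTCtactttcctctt
Oas1a (chr5:120907526-120907557, minus strand): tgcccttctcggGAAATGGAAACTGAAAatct
Bst2 (chr8:71537575-71537614, minus strand): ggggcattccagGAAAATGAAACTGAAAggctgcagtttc
Ddx60 (chr8:61928022-61928086, plus strand): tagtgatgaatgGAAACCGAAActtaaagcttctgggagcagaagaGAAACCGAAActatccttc
Slfn5 (chr11:82951935-82951968, plus strand): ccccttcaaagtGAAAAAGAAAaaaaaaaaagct

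Isg15 had 3 overlapping matches in 46 bases, and Oas1a had 2 that ended close to the start site. The stretches of Ifit3 and Ifit3b were identical over all 68 bases, and reads from these near-identical genes may have been split between them by the authors' counting. In the 250 bases before the start, the repeat was found in 978 of 32851 RefSeq promoters (2.98%). A promoter was listed for 8 of the 12 rule genes, and 4 of the 8 held the repeat (Ifit1, Ifit3, Ifit3b and Isg15). Among all effector genes outside the rule it was found in 34 of 79 listed promoters (43.04%). It was in 9 of 23 (39.1%) for the effectors that rose in responsive cells (below) and in 2 of 15 (13.3%) for those tested that did not pass. For genes that fell, it was 12 of 483 (2.48%), and for all genes tested 3.36% of 4349. A match describes the letters only.

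The following values describe the choice of cells and are not findings. Most responsive cells were just inside the rule: 33 had exactly 2 rule genes, 7 had 3, 3 had 4, 4 had 5, 2 had 6, and 1 cell each had 7, 8 and 10. Rtp4 was the most frequent rule gene, at 10 CPM or more in 30 of the 52 cells (57.7%). Xaf1 followed with 21 cells, Ifit3 with 17, Irf7 with 16, Ifi204 with 14, and Usp18 and Ifi27l2a with 11 each. Ifit3b was at 10 CPM in 10 responsive cells, Oasl2 in 9, Ifit2 in 7, and Ifit1 and Isg15 in 5 each. The genes also differed in how often they stood alone. Of the 58 cells with Xaf1, 21 were responsive (36.2%) and 37 had no other rule gene. All 10 cells with Ifit3b were responsive, and so were 9 of 10 with Oasl2. Rtp4 with Xaf1 was the most frequent pair, in 11 cells.

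Where a rule gene was on, it was far above the limit of 10 CPM in most cells. Rtp4 ranged from 65.1 to 1822 CPM in its 30 responsive cells, with a median of 607.7. Ifit3 ranged from 102.1 to 1998 CPM with a median of 524, and Irf7 from 15.4 to 1056 with a median of 235.2. Isg15 was lower, from 46.04 CPM with a median of 68.4 in its 5 cells. Summed over responsive cells, Rtp4 was at 279.7, 571 and 367 CPM in TH 1, 2 and 3. Oasl2 ranged from 6.83 CPM in TH 1 to 286.5 in TH 2. The Rtp4 gene as annotated in the tables (chr16:23520291-23614222, plus strand, mm10, a span that includes introns) overlaps Masp1, and the strand setting of the counting is not given in the sources used here. Ifit1, Ifit2, Ifit3 and Ifit3b lie next to each other on chromosome 19, from Ifit2 at chr19:34550694-34576419 to Ifit1 at chr19:34640871-34650009.

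**Figure D1:**
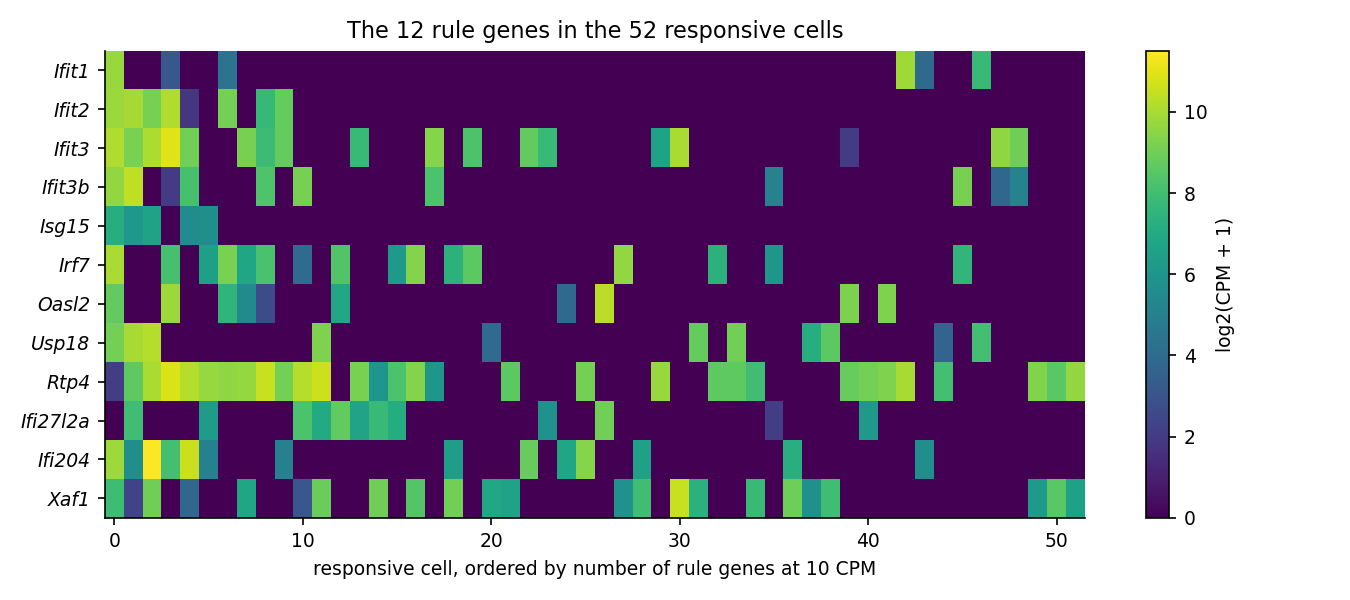
Each column is 1 of the 52 responsive cells and each row a rule gene, coloured by log2(CPM + 1), with cells ordered from 10 rule genes on the left to 2 on the right. Of the 12 cells with 4 or more rule genes, 11 had Rtp4 at 10 CPM, 8 had Ifit3 and 7 had Irf7, and no rule gene was on in all of them.

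The label was checked against microglial markers. The 8 markers, among them P2ry12, Tmem119, Cx3cr1, Siglech, Sall1, Gpr34 and Fcrls, summed to 42290 ± 4813 CPM in responsive cells and 48320 ± 3139 in other cells (SD, n = 3 TH numbers). The sums were 39690, 47850 and 39340 CPM in TH 1, 2 and 3 against 46300, 51930 and 46720, so responsive cells were lower in each TH number. All 8 border-associated macrophage markers and all 6 red cell markers were at 0 in responsive cells. Of the monocyte list, 7 of 8 genes were at 0, Ly6c2 among them, and the list summed to 0.887 CPM. Plasmacytoid dendritic cells are major interferon producers. Their markers Ccr9, Cd209d, Klk1 and Pacsin1 were at 0, and that list's sum of 1543 ± 531 CPM against 1489 ± 183.2 in other cells was mostly Lair1. Its members Tcf4 (238.3 CPM in responsive cells) and Ptprcap (58.97 CPM) were also read, and 13 of 52 responsive and 24.9% of other cells carried 3 of its markers at 10 CPM. The neutrophil sum of 477.9 CPM was Csf3r alone, with S100a8 and S100a9 at 0. No responsive cell carried 3 markers of endothelial cells, astrocytes, oligodendrocytes or neurons at 10 CPM. The label of microglia was met in both classes, at a lower marker sum in responsive cells.

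Responsive cells were less frequent in plasma none than in plasma low and plasma high. In plasma none 10 cells were responsive (2.89%, Clopper-Pearson 95% interval 1.39% to 5.25%). Plasma low had 23 (6.55%, 4.20% to 9.67%), and plasma high 19 of its 290 cells (6.55%, 3.99% to 10.04%). These intervals overlap, and they cover counting error only. Each group held 93 or more passing cells in every TH number. Over TH 1, 2 and 3, the responsive cells of plasma none numbered 3 (2.59%), 6 (5.31%) and 1 (0.855%). Those of plasma low numbered 11 (9.32%), 7 (5.98%) and 5 (4.31%), and those of plasma high 7 (6.93%), 7 (7.29%) and 5 (5.38%). Plasma high was above plasma none in 3 of 3 TH numbers, by 4.35, 1.98 and 4.52 percentage points (mean 3.62 ± 1.42). Plasma low was also above plasma none in 3 of 3, by 6.74, 0.673 and 3.46 points (mean 3.62 ± 3.04). Without TH 1 that mean was 2.06, and with at least 3 rule genes it was 1.41. In cells with at least 200000 reads plasma low differed from plasma none by 14.6, −0.351 and 3.51 points, so the sign was not the same in each TH number. Plasma low and plasma high did not separate, and both comparisons share the plasma none cells.

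The shares were also taken at an equal depth and by plate row. The well labels place each plasma group in its own block of plate columns, so dye signal and plate column cannot be told apart. When every cell was thinned to 50000 reads, which left out no passing cell, plasma none remained the lowest at 2.60%, beside 6.27% for plasma low and 6.21% for plasma high. In TH 1, 11 of the 21 responsive cells sat in plate rows M to P, where 11 of 77 cells were responsive (14.3%), against 2, 3 and 5 responsive cells in rows A to D, E to H and I to L (at most 5.56%). Of the 30 plasma low cells in that part of the plate, 9 were responsive. Without those wells plasma low exceeded plasma none by −0.0260 points in TH 1 and by 1.37 points on average, while plasma high exceeded it by 3.81. In TH 2 rows M to P held 4 of 20 responsive cells, and in TH 3 1 of 11. The part of plate position in the result was not tested further. Cells with at least 4 rule genes were rare in each group: 2 in plasma none and 5 each in the other two.

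**Figure D2:**
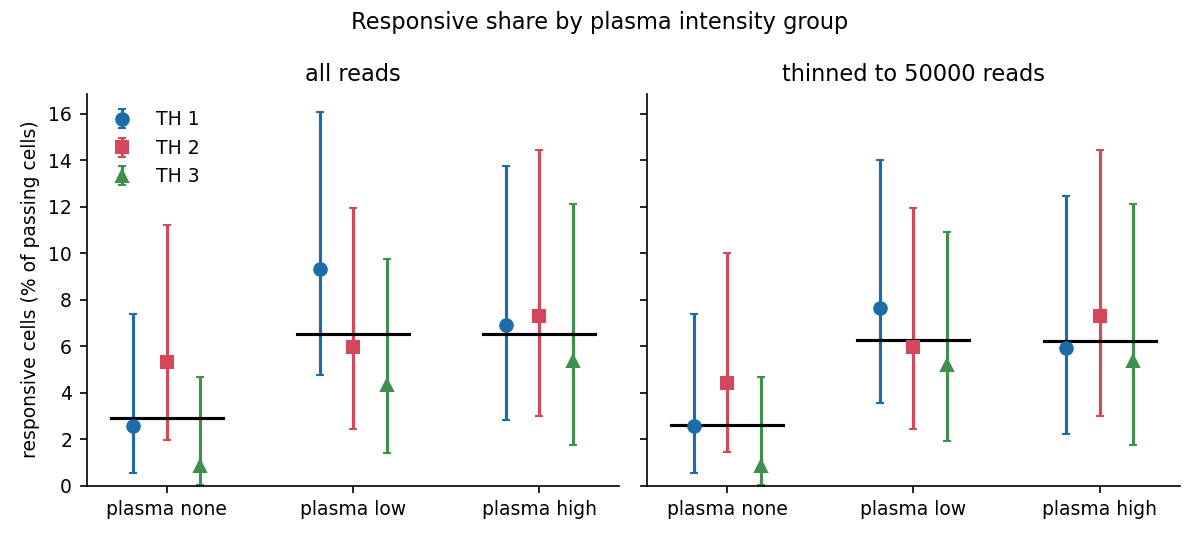
Percentage of passing cells that were responsive (y axis) in plasma none, low and high, with points for TH 1, 2 and 3, bars for Clopper-Pearson 95% intervals and a line for the mean of the 3. At all reads the means were 2.92%, 6.54% and 6.53%, and thinning to 50000 reads left plasma none the lowest.

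Responsive cells were the deeper libraries when TH numbers were pooled, but not within each TH number. Their pooled median depth was 287227.5 reads (71212 to 717070), against 233357 in other cells (50098 to 2264846). In TH 1 the medians were 235108 against 188171 reads, in TH 2 324757.5 against 333499, and in TH 3 190371 against 217127.5. Responsive cells had a median of 1890 genes with a read, against 1810 in other cells and 2014 in cells with 1 rule gene. At an equal 50000 reads the medians were 1663, 1643 and 1769 genes. The pooled median mitochondrial share was 0.811% in responsive cells and 0.738% in other cells. Over TH 1, 2 and 3 it was 0.76%, 0.99% and 0.49% in responsive cells against 0.81%, 0.84% and 0.66% in other cells. When all cells were thinned to 50000 reads, 49 cells were responsive by the same limits.

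The comparison of responsive with other microglia covered all genes outside the rule. Reads were summed by class within each TH number, giving 5676294, 7204973 and 2335850 reads from 21, 20 and 11 responsive cells, and 63129778, 98078461 and 64502714 reads from the 807 other cells. A gene rose or fell if its log2 ratio (CPM + 1) averaged at least 1 in size with the same sign in 3 of 3 TH numbers, its mean level over both classes was at least 20 CPM, and at least 10% of the cells of 1 class had a read. Of 5557 genes tested, 2.79% rose and 606 fell (10.9%). The median gene tested had a log2 ratio of −0.31, and changes should be read relative to that shift. With DESeq2 size factors 3.91% rose, 463 genes fell (8.34%) and the median was −0.16. Falls lay mostly in genes read in few cells: 13.01% of the genes read in under 20% of other cells fell, 11.1% of those read in 20% to 50%, and 6 of 649 (0.925%) of those read in 50% or more. Of these 649 widely read genes 2 rose, and their median ratio was −0.05. Without TH 1, when the same sign was asked of 2 TH numbers, 1373 genes passed, and without TH 2 1231, against 761 with all 3.

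Interferon-stimulated effectors outside the rule were the group that moved most. Of 44 effectors tested, 27 rose and none fell, beside 2.79% and 10.9% of all genes tested. A gene seen mainly in responsive cells can enter the test through them. With the filter on the other cells alone, 11 of 28 effectors rose, beside 1.39% of 5107 genes. Over the 65 effectors at 5 CPM or more the median log2 ratio was 1.45 (SD of the medians in the TH numbers 0.25). This level is the mean of both classes, so genes near 0 in other cells can enter through responsive cells and raise the median. No such median was taken with the filter on other cells alone. All genes tested, under the stricter filter above, had a median of −0.31. Of the 65, 37 were higher in 3 of 3 TH numbers and 2 lower, beside 497 and 979 of all 5557 genes tested. The effectors summed to 9312, 9440 and 12470 CPM in responsive cells of TH 1, 2 and 3, and to 4407, 4493 and 4272 CPM in other cells, so the classes did not overlap. Because each class in a TH number is a sum of as few as 11 cells, single cells matter. When each sum was taken without the cell highest for that gene, the effectors' median was 0.64, that of all genes tested −1.46, and 12 of 41 effectors rose beside 0.557% of all genes. This step takes a larger share from the class with fewer cells. Fewer cells with the RNA and less RNA per cell cannot be told apart in these sums, so shares of cells with a read are given beside them.

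Among membrane and cell-surface effectors, Ifitm3, which blocks fusion of viruses in endosomes, separated the classes most. It was at 213.3, 144.8 and 63.5 CPM in responsive cells of TH 1, 2 and 3, against 1.93, 0.990 and 1.77 in other cells. A read was found in 13 of 52 responsive cells and 8 of 807 other cells (0.991%), and the log2 ratio was 5.64 ± 0.95. Bst2, or tetherin, which holds budding virions at the cell surface, was at 278.8, 120.5 and 61.1 CPM against 59.9, 28.5 and 38.5. Its log2 ratio was 1.63 ± 0.85, and it was read in 34.6% and 19.3% of cells. Ly6a, which encodes the surface protein Sca-1, rose by a log2 ratio of 3.18 ± 0.36 but was read in only 6 responsive cells. Ly6e, a related surface protein, was read in nearly every cell and was at 2110, 2088 and 1505 CPM against 1284, 1177 and 931. Its log2 ratio of 0.75 ± 0.07 was under the size limit, and the classes did not overlap. Fcgr1, the high-affinity IgG receptor, was read in 39 of 52 and 444 of 807 cells and rose by 1.04 ± 0.15, from 242.7 ± 47.3 CPM in other cells to 496.5 ± 42.5. It was 1 of the 2 widely read genes that rose, and the other was the lipid transporter Abcg1 (1.04 ± 0.34), where 1 cell held 44.3% of the responsive reads.

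The effectors that rose also included genes for enzymes and RNA-binding proteins. Oas1a, whose product makes the messenger that activates RNase L, was at 92.7, 74.3 and 19.9 CPM against 1.79, 0.737 and 2.83, with a log2 ratio of 4.32 ± 1.63. It was read in 7 responsive and 10 other cells. Slfn5, a Schlafen family gene (chr11:82951349-82964840, plus strand), had the largest ratio of all genes tested, 5.89 ± 1.01. It was at 36.1, 59.8 and 124.6 CPM in responsive cells and under 1 CPM in other cells of each TH number. Its ratio therefore depends on the value added to each CPM. With 5 CPM added in place of 1 it was 3.78, below the 4.32 of Ifitm3. Slfn2, another Schlafen gene with a role in T cell and monocyte quiescence, was read in 23 responsive cells (44.2%) and 70 other cells (8.67%), with a ratio of 2.66 ± 0.49. Eif2ak2, which encodes the RNA-activated kinase PKR, rose by 1.16 ± 1.40. Rnf213, a large ubiquitin ligase, rose by 2.31 ± 1.38, and Herc6, the ligase that attaches ISG15 in mouse, by 2.35 ± 0.74. Ube2l6, the conjugating enzyme of the same pathway, was read in only 6 responsive cells and rose by 2.10 ± 0.48. Without the top cell of each sum the ratios of Ube2l6 and Rnf213 were 0.91 and 0.98, and without rows M to P of TH 1 that of Ube2l6 was 0.54.

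Genes for secreted and nuclear proteins were also among the effectors that rose. Lgals3bp, a secreted glycoprotein (chr11:118392751-118402092, minus strand), was at 485.8, 818.5 and 712.5 CPM in responsive cells and 149.7, 141.8 and 148.1 in other cells. A read was found in 51.9% and 24.5% of cells, and the ratio was 2.16 ± 0.42. Thinned to 50000 reads the shares were 51.9% and 23.3%. Ifi35 was at 229.4, 150.8 and 217.5 CPM against 71.3, 46.6 and 38.7, a ratio of 1.94 ± 0.46, in 46.2% and 14.8% of cells. Sp100, a component of nuclear bodies, rose by 2.42 ± 1.13. Trim30d (2.70 ± 1.06) and Trim34a (2.36 ± 1.32) belong to a family of ubiquitin ligases, and Phf11d (2.86 ± 1.20) and Phf11b (2.51 ± 1.80) are PHD-finger genes. Without the top cell of each sum the Trim34a ratio was 0.71. Trim34a and Phf11 genes have close relatives, so their reads may be divided among copies. Ifi209, of the same p200 family as Ifi204, rose by 2.93 ± 1.18. Bst2, Ly6e, Fcgr1, Abcg1, Eif2ak2 and Ifi35 were named after their values were seen, as were the further list members below that passed no rule.

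**Figure D3:**
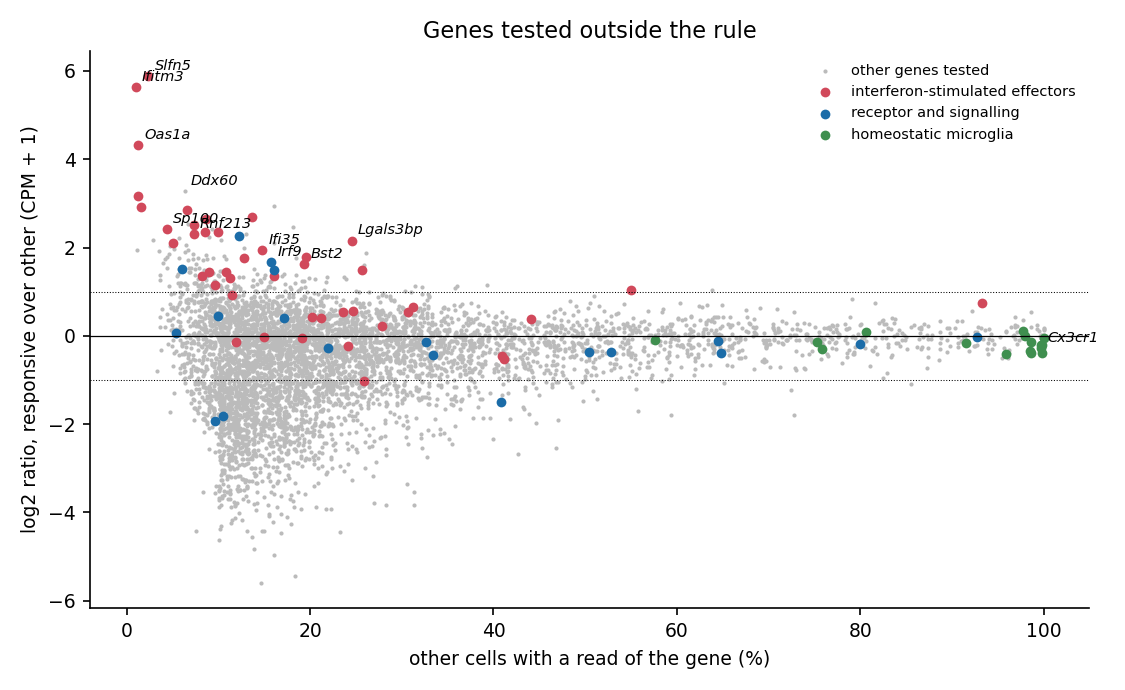
Each point is a gene tested, with the percentage of other cells that had a read on the x axis and the log2 ratio of responsive over other cells on the y axis, dotted lines marking 1 and −1. Of the 44 effector genes (red) 37 lie above 0, Slfn5 and Ifitm3 the highest, and 7 lie below, such as Ifi30, and the spread of grey points widens towards genes read in few cells.

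**Figure D4:**
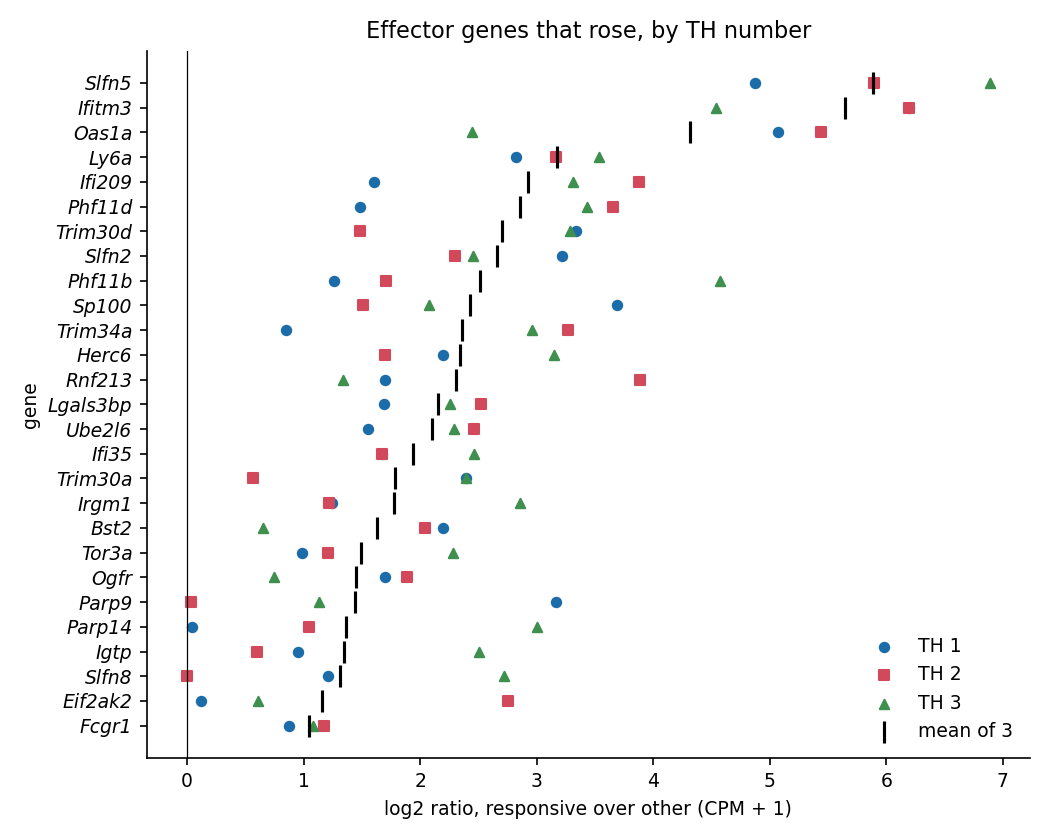
The 27 effector genes that rose (rows), with the log2 ratio of responsive over other cells in TH 1, 2 and 3 as points and the mean as a bar. All points lie above 0, as the size rule requires, and the mean ranges from 1.04 for Fcgr1 to 5.89 for Slfn5.

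Effectors that did not pass the size rule included Gbp7, a guanylate-binding protein (0.42 ± 0.53), Irgm2 (0.66 ± 0.28) and Ifi30, a lysosomal thiol reductase (−1.01 ± 1.25). Several classical effectors were too rare for the test. Rsad2, which encodes viperin, had a read in 5 of 52 responsive cells and 0 of 807 other cells. Oasl1 had a read in 3 responsive and 0 other cells, Cmpk2 in 4 and 2, and Ifi207 in 5 and 1. These 4 genes were chosen after their values were seen.

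The receptor and the pathway behind it moved unevenly. Of 19 receptor and signalling genes tested, 3 rose and 1 fell, beside 2.79% and 10.9% of all genes tested. Reads of genes that overlap in the annotation cannot be told apart with strand use not given. This touches Irf9 (which overlaps Rnf31), Slfn5 (Slfn5os), Jak1 (Raver2), Trex1 (Atrip), Dhx58 (Dhx58os), Rhbdd3 (Ewsr1), Irgm2 (Igtp), Smim15 (Ndufaf2), B2m (Patl2), Cxcl10 (Art3), and P2ry12 and P2ry13 (Med12l). Irf9, the DNA-binding partner of the STATs, was at 193.7, 231.6 and 169.5 CPM in responsive cells against 43.8, 85.3 and 61.5 (1.67 ± 0.39) and was read in 42.3% and 15.7% of cells. With at least 3 rule genes asked of a responsive cell its ratio was 0.65. Irf1, a transcription factor induced by both interferon types, was at 142.6, 277.4 and 287.4 CPM against 80.6 ± 18.9 (1.49 ± 0.34). Stat2 averaged 1.52 but with both signs (SD 2.03), and 1 cell held 55.1% of its responsive reads. Jak1 fell, with log2 ratios of −1.96, −2.32 and −0.23 in TH 1, 2 and 3. The receptor genes gave ratios of −0.28 ± 1.09 for Ifnar1 and −0.37 ± 0.96 for Ifnar2, and Ifngr1, a receptor chain for interferon gamma, −0.03 ± 0.32. None of the 12 interferon ligand genes reached 5 CPM. The list as a whole had a median of −0.13.

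Among nucleic acid sensors and adaptors, 3 of 16 tested rose and 1 fell, beside the same 2.79% and 10.9% over all genes. Trex1, the exonuclease that clears cytosolic DNA, was at 190, 285.5 and 150 CPM against 60.7, 60.6 and 53.2, a ratio of 1.78 ± 0.39. It was read in 27 of 52 responsive cells (51.9%) and 18.5% of other cells. Samhd1, which depletes nucleotides, rose by 1.12 ± 0.80, but its ratio was under 1 without TH 2 (0.67), in thinned cells (0.59) and in cells with at least 200000 reads (0.44). Dhx58, a regulator of RNA sensing also known as LGP2, rose by 1.79 ± 0.94, but 1 cell held 54.4% of its responsive reads, and without the top cells the ratio was −0.59. Tbk1, the kinase downstream of several sensors, fell by 1.12 ± 1.24 on the log2 scale, by far the most in TH 3 (−0.41 without it). Tlr7, a sensor of single-stranded RNA, was at 0.25 ± 0.27 and did not pass. The sensor list had a median of −0.08.

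Of all genes that rose, 33 were in the 3 interferon lists, and 13 of the rest had predicted or clone names. The named rises outside the lists included 3 of the 15 largest. Ddx60, a helicase that aids RNA sensing and whose promoter is shown above, was at 75.1 and 75.2 CPM in TH 1 and 2 and higher in TH 3 (mean 120.7), against 9.18, 8.79 and 12.6 (3.28 ± 0.60). It was read in 12 of 52 and 51 of 807 cells. H2-T24, a nonclassical class I gene, was at 197.6, 347.8 and 465.2 CPM against 43.3, 66.3 and 87.01 (2.32 ± 0.13), a ratio that was 0.65 with at least 3 rule genes. Rhbdd3, a rhomboid-like gene, rose by 2.47 ± 0.83 with 37.7% of its reads in 1 cell. The following 2 were chosen after their values were seen. Sdc3, a cell-surface proteoglycan, was read in 18 of 52 and 72 of 807 cells and rose by 2.23 ± 1.21. Zup1, a deubiquitinase, was read in 26 of 52 responsive cells and 26.1% of other cells and rose by 1.89 ± 1.36, with 1107 CPM in TH 3 against 246.5 and 216.8 in TH 1 and 2. Of the 82 genes with a listed promoter that rose outside these lists, 4 held the GAAA repeat (4.88%), Ddx60 among them.

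The largest falls were all genes read in few cells of either class. Ankrd13c, which encodes an endoplasmic reticulum protein, was at 0.719, 10.3 and 0 CPM in responsive cells against 149.6, 95.7 and 146.5. It was read in 2 of 52 responsive cells and 14.6% of other cells. Dhx36, a helicase that unwinds G-quadruplexes, was read in 2 responsive cells and 16.1% of other cells, and Smim15, a small membrane protein, in 4 and 18.3%. Phc3, a Polycomb group gene, was read in 6 responsive cells (11.5%) and 23.3% of other cells. The others of the 10 largest falls were Bank1, Rufy1, Ezh1, Aff4, Appl2 and Kpna1, each read in 1 to 7 responsive cells. The smallest responsive sum held 11 cells. Among widely read genes, Myh9, non-muscle myosin, was the steadiest fall, at 10.8, 10.3 and 18.7 CPM against 41.6, 38.9 and 52.9 (−1.71 ± 0.22), and was named after its values were seen.

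Antigen presentation showed smaller values. None of 17 class I and peptide loading genes passed the size rule in either direction, beside 2.79% of all genes tested that rose and 10.9% that fell, and their median was 0.39. H2-T24, described above, was outside this list. B2m, the class I light chain, was at 4440, 2963 and 2911 CPM against 2736, 2019 and 2228 (0.55 ± 0.16), so it was higher in every TH number by less than the size limit. H2-D1 gave 0.83 ± 0.69 and H2-K1 0.42 ± 0.62. Psme2, a proteasome activator subunit, had the largest ratio of the list (1.13 ± 1.03) with a value of −0.05 in TH 3, and Erap1, which trims peptides, the lowest (−2.23 ± 3.05). Of the class II list 2 genes were tested and none passed. Cd74, the invariant chain, was at 0.43 ± 4.75 and H2-DMb1 at −1.42 ± 2.58.

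Of 22 chemokine and cytokine genes listed only 6 could be tested. None of the 6 rose and 1 fell, Ccl9 (−1.36 ± 1.17), beside 10.9% of all genes tested. The Ccl9 ratio was −0.86 without TH 2 and −0.55 with at least 3 rule genes. Ccl12, a chemokine for monocytes, was read in 15 of 52 responsive and 130 of 807 other cells. It was at 32.9, 619 and 1195 CPM against 40.9, 35.8 and 34.4, lower in TH 1 and higher in TH 2 and 3. Ccl3 was read in too few cells to be tested (5 of 52). Its ratio was above 1 in each TH number (1.68, 5.70 and 2.32), 1 cell held 89.96% of the responsive reads, and the ratio was −1.42 without the top cells. For Cxcl10, a classical interferon target, the only cell with a read among both classes was 1 responsive cell of TH 2, which gave 162.8 CPM there. Ccl12 and Cxcl10 were chosen after their values were seen.

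None of 16 homeostatic genes, which mark resting microglia, passed the size rule, beside 2 rises and 6 falls among all 649 widely read genes. Their median was −0.18, beside −0.31 for all genes tested and −0.05 for the widely read genes. In 3 of 3 TH numbers 8 of the 16 were lower, beside 979 of all 5557 genes tested. Tmem119 was at 3067, 3676 and 3015 CPM against 4143, 4348 and 4219 (−0.39 ± 0.13), and P2ry12, a nucleotide receptor, at 6803, 9033 and 6057 against 8945, 9994 and 9238 (−0.38 ± 0.23). Siglech differed by 0.12 ± 0.10 and P2ry13 by −0.42 ± 0.39. With at least 3 rule genes asked of a responsive cell the ratios were larger, at −1.06 for P2ry12, −1.05 for P2ry13, −0.92 for Gpr34, −0.68 for Cx3cr1 and −0.67 for Tmem119. Disease-associated genes had a median of 0.15 with 0 of 14 past the rule, beside 2.79% of all genes tested that rose and 10.9% that fell. Axl, a receptor for dying cells, gave 1.38 ± 1.56 and Cd63 −0.29 ± 0.79.

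Of 20 lysosome and endocytosis genes tested, 1 rose and none fell, with a median of 0.11. This count is near the 2.79% of all genes tested that rose. Of all genes tested 10.9% fell, and both shares stand beside each count below. The gene that rose was Atp6v1a, a subunit of the acidifying proton pump (1.37 ± 0.46). It was outside the naming rule and named after its value was seen. Tfrc, the transferrin receptor, had the list's largest ratio (1.90 ± 5.92, read in 3 responsive cells) and Rab5c its lowest (−1.19 ± 3.00). In the complement list 1 of 8 genes tested fell, C5ar1, the C5a receptor, by 1.11 ± 0.53 on the log2 scale. With DESeq2 size factors the C5ar1 ratio was −0.96, under the size limit. C1qb was at 0.03 ± 0.13. Immediate early and dissociation genes had a median of −0.46, beside −0.31 for all genes tested, with 0 of 9 past the rule. Klf6 gave 0.29 ± 0.25 and Rhob −0.96 ± 0.55. Neither of 2 proliferation genes tested passed: the list's largest ratio was Mcm5 (1.15 ± 3.50) and its lowest Tyms (−4.14 ± 2.64). All 76 ribosomal protein genes stayed inside the rule with a median of 0.12, from Rpl5 (−1.07 ± 1.62) to Rps20 (0.69 ± 0.12). Genes past the rule were also rare among the 649 widely read genes, of which 0.308% rose and 0.925% fell. The 8 mitochondrial genes had a median of 0.05, from mt-Nd5 (−0.70 ± 0.79) to mt-Nd2 (0.75 ± 0.31).

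The effectors, which the rule did not use, were graded with the number of rule genes in a cell. Their summed level had a median of 3995 CPM per cell (quartiles 2958 and 5361) in the 807 cells with no rule gene. It was 4677 (3330 and 5935) in the cells with 1, 5595 (4415 and 7408) in the 33 with 2, 8213 (6180 and 12720) in the 7 with 3, and 16390 (13740 and 19520) in the 12 with 4 or more. The order of cells with no rule gene, with 2 and with 4 or more was the same in each TH number: 4114, 5643 and 17780 CPM in TH 1, 4127, 5661 and 15770 in TH 2, and 3734, 4907 and 16760 in TH 3. Cells with 1 rule gene were between those with 0 and 2 in TH 1, but below the cells with none in TH 2 (4009 CPM) and above the cells with 2 in TH 3 (5039 CPM). At an equal 50000 reads, the median number of effector genes with a read was 8, 10, 11, 13 and 23 over the 5 classes. Cells just outside and just inside the rule thus lay close together, and the 12 cells with 4 or more stood far above both.

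**Figure D5:**
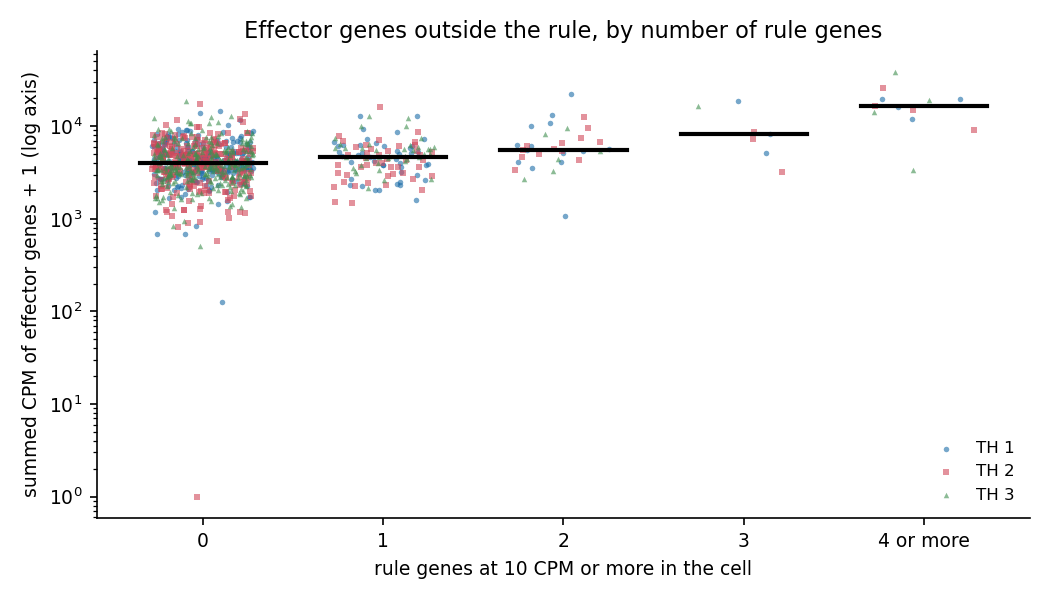
Each point is a cell, with the summed CPM of the effector genes on a log y axis and the number of rule genes at 10 CPM on the x axis, marked by TH number, and a line for the median. Medians climb from 3995 CPM with no rule gene to 16390 with 4 or more, and the cells with 2 overlap those with 0 and 1.

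Single genes differed in where along this range they appeared. Tor3a, an ATPase of the nuclear envelope, was at 133.9, 141.3 and 916 CPM in cells with no rule gene, with 2 and with 4 or more, and Irgm1, an immunity-related GTPase, at 62.7, 82.4 and 515. Irf9 and Trex1 were already high in cells with 2 rule genes. Irf9 was at 65.99, 215.2 and 238.9 CPM with 0, 2 and 4 or more, and was read in 42.4% of the cells with 2 and 41.7% of those with 4 or more. Trex1 was at 57.9, 200.8 and 203.9 CPM, though it was read in 18.5%, 42.4% and 66.7% of cells. Slfn5 was read in 2.35%, 15.2% and 66.7% of cells, and Slfn2 in 8.67%, 30.3% and 83.3%. Rsad2 was read in 1, 1 and 3 cells with 2, 3 and 4 or more rule genes. Tor3a and Irgm1 were chosen after their values were seen. With 12 cells in the top class these shares are coarse.

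Cells with exactly 1 rule gene were compared with the same 807 other cells, and 90 of 5761 genes rose (1.56%) and 3.25% fell. Of 36 effectors tested 1 rose and none fell, and the effectors' median ratio was 0.14 against −0.08 over the 5557 genes tested in responsive cells. The effector that rose was Parp10 (1.05), which was outside the test in responsive cells. Irf9, of the signalling list, had a ratio of 1.45 and was read in 30.5% of cells with 1 rule gene against 15.7%. Slfn2 was read in 18.8% against 8.67% (ratio 0.46), and Lgals3bp in 39.1% against 24.5% (0.06).

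Responsive cells were compared with other cells within each plasma intensity group, with TH numbers pooled. For plasma none, with 10 responsive cells, the effectors' median log2 ratio was 0.44. For plasma low it was 1.63 (23 responsive cells) and for plasma high 1.29 (19). The same medians over all genes tested were −0.58, −0.08 and −0.08. Lgals3bp had ratios of 1.33, 2.35 and 2.14 in plasma none, low and high, Ifitm3 5.61, 6.90 and 4.21, Trex1 2.10, 2.19 and 1.63, and Slfn2 2.87, 2.88 and 2.05. These genes were higher in responsive cells at each dye level. Irf9 was at −0.22, 1.84 and 2.28, lowest in plasma none. The difference between plasma groups was not tested. Within cells that had no rule gene, the effectors' summed level was 4423 ± 154.6 CPM for plasma none, 4166 ± 113.6 for plasma low and 4517 ± 86.2 for plasma high. No order with dye signal was seen. Responsive cells gave 12160 ± 7510, 13010 ± 5872 and 8286 ± 1543 CPM in the same order, which overlapped over TH numbers.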

How the data were processed

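Single-cell Smart-seq2 libraries were read from the authors' deposited tables, 1 per TH number, which give whole-number counts per gene and cell. The deposited column of 1 cell of TH 3 held 2 values that were not whole, so its unit was taken to be expected counts and it was rounded. Per the submitters' processing notes, reads were trimmed with Trim Galore and aligned with STAR 2.5.3a to mm10. Which program counted the reads, and whether by strand, is not given in the sources used here. Per the file headers, the columns of TH 2 and TH 3 came from alignments reduced to top hits, a remark absent from TH 1. Columns were matched to 1045 of 1111 labelled cells by well and TH number, and 66 cells were not analysed here. Gene IDs matched GENCODE M21 in 35546 of 35583 cases, 99.6% of them with identical coordinates.

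Cells needed 50000 reads and 500 genes, which 987 met. They were sorted singly, so no doublet caller was run. Class sums were scaled by TMM factors from edgeR 4.0.16 (R 4.3.3), and list medians used genes at 5 CPM or more. Intervals are exact binomial at 95%. Named genes were the 12 rule genes, the 15 largest rises and 10 largest falls without predicted or clone names, up to 15 genes past the rule from each interferon list, and the largest rise and fall of every other list at 20 CPM. The cells' rule, the gene lists and the comparisons were chosen with earlier results of these data known. Alternatives changed the scaling (DESeq2 1.42.0), pseudocount, filters, rule, depth and cells used. The endothelial, astrocyte, oligodendrocyte, neuron and lymphocyte lists summed to 576, 420, 147, 0.432 and 46.2 CPM in responsive cells and 560, 283, 181, 2.85 and 35.6 in other cells. Some genes are not reported here by name.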

Additional observations from a re-analysis of the deposited data

Results flagged for a closer look

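The median log2 ratio of the genes for MHC class I and peptide loading was below 0 in all 3 TH numbers of plasma none (−0.52, −0.54 and −5.45, mean −2.17) and above 0 in all 3 of plasma high (0.45, 0.47 and 0.01, mean 0.31), a difference of 2.48 between the groups. The difference was not tested. The responsive cells of plasma none numbered 3, 6 and 1 in TH 1, 2 and 3, so the value of −5.45 comes from 1 cell. With TH numbers pooled the medians were −0.61 in plasma none and 0.43 in plasma high, beside −0.58 and −0.08 for all genes tested.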

How the results depend on the processing

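The rise of the effectors kept its direction under every alternative run, while the number of all genes past the size rule did not stay near 761 (13.7% of those tested). It was 1418 (24.3%) with at least 3 rule genes, 1230 (21.2%) in cells with at least 200000 reads, 1808 (38.7%) without the top cell of each gene and 3505 (9.85%) with no filter on low values. At a mean of at least 50 CPM 9.86% passed of 3643 tested, and without one TH number, where fewer signs must match, 1108 to 1373 genes passed (20.1% to 25.3%). With no replicate block, the sums pooled over TH numbers in place of paired ratios, 1002 genes passed (18.1%, of which 490 rose and 512 fell), the median of all genes tested was 0.074 and that of the effectors 1.72. The TH number is a label for a set of wells, and the classes lie within each. The effectors' median was 1.19 in cells thinned to 50000 reads, 0.64 without the top cells and 1.15 without rows M to P of TH 1, and the effectors that rose numbered 12 without the top cells and 11 with the filter on other cells alone. Without the top cells Dhx58 was at −0.59. These causes were not tested.

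The shares in plasma none, low and high were 11.9%, 22.5% and 20.6% with at least 1 rule gene, which adds cells by construction, and 0.870%, 2.28% and 2.77% with at least 3. Plasma high exceeded plasma none by 8.68 points with at least 1 rule gene and by 1.90 with at least 3, and plasma low exceeded it by 10.6 and 1.41 points. With cells pooled and no replicate block the shares were 2.89%, 6.55% and 6.55%. Of the 38 named genes past the size rule, which were chosen for 1 sign and a ratio of at least 1, 5 had a ratio under 1 in size without the top cells, 4 with at least 3 rule genes, 3 without rows M to P of TH 1, 1 in thinned cells and 0 to 3 without one TH number. Ifit3 with Ifit3b as 1 gene, the plasma makeup, rows M to P, other-type markers and the filter on other cells were chosen after seeing the data. Of the 58 named genes, the ratio moved by more than its SD for 5 in cells thinned to 50000 reads and for 14 without the top cells, beside Dhx58.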
